A study of Mus musculus with 11 samples.

Results

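The genes described here are 53 interferon-stimulated genes, taken by symbol from a fixed list of receptors, transcription factors, sensors and antiviral effectors, and all 53 were among the 12647 genes of the count table. The list was read in LSKs (the Lin-Sca1+Kit+ fraction of bone marrow, where hematopoietic stem cells and multipotent progenitors are found) from young, tumor-free mice. The study's methods state a backcross to C57BL/6 for the p53+/+ and p53R248W/+ mice and name no background for the p53-/- mice. There were 3 libraries each from p53+/+, p53R248W/+ and p53-/- mice, so 9 of the 11 samples of the series were used, and the 2 H3K27me3 ChIP-seq samples were not analysed here. The p53+/+ mice are called wild type in the labels, and in the study's methods they are HUPKI mice, which carry a humanized p53 knock-in allele. The p53R248W/+ mice carry the R248W substitution in 1 copy of that humanized allele, expressed from the endogenous Trp53 promoter, and the p53-/- mice have no functional p53. Nothing in the labels says that the 3 libraries of a genotype came from separate mice, so p-values measure the spread between these libraries, which may be technical.

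Interferons are secreted cytokines that bind receptors on the cell surface and act through JAK kinases. Type I interferons lead to a complex that holds Stat2 and Irf9 and binds the interferon-stimulated response element (ISRE) in promoters, and type II interferon acts through the gamma-activated site (GAS). The genes induced in this way restrict viruses and intracellular bacteria, and hematopoietic stem cells are known to respond to both types of interferon. Sca-1 (Ly6a), 1 of the surface markers by which LSKs are sorted, is itself induced by interferon.

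Promoters are shown for the 4 members that had the smallest p-values between p53-/- and p53+/+ LSKs among those whose promoter held an ISRE. The windows run from 250 bases before to 50 bases after the start site, 5' to 3' on the strand of the gene, from RefSeq on GRCm38.p6. Capitals mark every match to GAAANNGAAA, searched on both strands. The Gbp7 window is chr3:142530086-142530385 on the plus strand and its match begins at position -53 from the start site, on the opposite strand. The Eif2ak2 window is chr17:78882523-78882822 on the minus strand, with the match at 19 bases into the transcript. The Igtp window is chr11:58199306-58199605 on the plus strand, with the match at -34, and the Irgm1 window is chr11:48871371-48871670 on the minus strand, with 2 overlapping matches that begin at -30.
Gbp7: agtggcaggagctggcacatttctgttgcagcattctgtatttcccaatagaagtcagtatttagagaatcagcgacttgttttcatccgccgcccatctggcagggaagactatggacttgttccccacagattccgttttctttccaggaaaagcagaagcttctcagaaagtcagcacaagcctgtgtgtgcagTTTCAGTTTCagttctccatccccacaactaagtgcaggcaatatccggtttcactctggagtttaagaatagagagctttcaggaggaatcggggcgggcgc
Eif2ak2: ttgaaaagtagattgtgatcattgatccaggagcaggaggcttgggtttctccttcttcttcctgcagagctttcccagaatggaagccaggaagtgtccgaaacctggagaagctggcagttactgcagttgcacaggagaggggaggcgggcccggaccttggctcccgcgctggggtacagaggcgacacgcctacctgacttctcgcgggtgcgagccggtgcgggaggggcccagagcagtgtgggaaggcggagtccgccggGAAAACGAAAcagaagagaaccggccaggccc
Igtp: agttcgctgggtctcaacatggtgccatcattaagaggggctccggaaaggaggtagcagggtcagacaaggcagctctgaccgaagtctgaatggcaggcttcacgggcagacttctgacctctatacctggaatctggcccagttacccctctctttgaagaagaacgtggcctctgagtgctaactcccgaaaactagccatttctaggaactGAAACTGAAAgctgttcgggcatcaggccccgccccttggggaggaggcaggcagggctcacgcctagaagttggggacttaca
Irgm1: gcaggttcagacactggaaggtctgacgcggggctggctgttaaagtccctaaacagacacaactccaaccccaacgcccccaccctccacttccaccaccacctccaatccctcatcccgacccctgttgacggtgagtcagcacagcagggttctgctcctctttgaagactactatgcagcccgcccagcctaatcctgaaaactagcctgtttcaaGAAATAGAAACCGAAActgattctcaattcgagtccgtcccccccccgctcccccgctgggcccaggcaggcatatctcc

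A promoter window was matched for 42 of the 53 members. GAAANNGAAA stood in the windows of 20 of these 42 members (47.6%), and in those of 3.89% of the genes of the count table with a window. By role, it was found in 6 of 6 GBP and IRG GTPases and in 3 of 4 sensors, but in 0 of 4 receptors. TTCNNNGAA, the letters of the GAS, were found on either strand for 15 members (35.7%), against 8.32% of the genes of the count table. A pair of p53 half-sites with a spacer of up to 13 bases was found for 0 members and for 0.0502% of the genes of the count table. The printed promoters were picked because they hold the element. They belong to genes that were lower in p53-/- LSKs (Gbp7 and Eif2ak2) and to genes that were higher there (Igtp and, short of the threshold, Irgm1). The windows of Ifit2, with lower values, and Irf9, with higher values, both short of the threshold, held no match. A match is a string of letters in a window of 300 bases, and binding was not measured.

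Library totals ran from 18021375 to 29750702 counts, of which the 53 members took from 0.504% to 0.651%. Trp53 was read in p53-/- LSKs at 129, 127 and 112 CPM (counts scaled to the library total), and the library labelled p53+/+ replicate 1, at 125 CPM, fell within that range, while the other p53+/+ and all p53R248W/+ libraries had from 207 to 376 CPM. The p53 target Cdkn1a was at 8.27 to 17.8 CPM in p53-/- and at 35.7 to 67.0 CPM in all other libraries, with its highest value in the library labelled p53+/+ replicate 1. The 8 LSK surface markers were all read, at a sum of 3406 to 4353 CPM, while 6 B cell markers summed to 74.6 to 131 CPM, 5 T and NK cell markers to 210 to 424 CPM and 9 dendritic cell markers, which include Flt3 of the LSK list and the member Bst2, to 1095 to 1723 CPM. Within these lists Ebf1 and Ms4a1 of B cells and Cd8a of T cells stayed below 5 CPM, so most of the B cell sum came from the other markers of that list. Among the granulocyte and monocyte markers, the neutrophil granule gene Ngp was at 1003 CPM in p53+/+ replicate 2 and 584 CPM in p53R248W/+ replicate 2, and at 1.08 to 22.6 CPM in the other 7 libraries. Reads on Y-linked genes were found in p53+/+ replicate 2 and p53R248W/+ replicates 2 and 3 and in no p53-/- library, so the sex of the mice and the genotype were partly confounded.

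The labels name no interferon treatment, and most of the interferon-stimulated genes were read at levels above the middle of the table. On a scale per gene length (RPKM, which is CPM divided by the gene length in kilobases), the members had a median level of 22 RPKM over the 9 libraries, and 40 of the 53 lay above the median gene of the table. The highest levels were those of Ifitm3 (966 RPKM) and Ifitm1 (720 RPKM), membrane proteins that block the entry of viruses, followed by Lgals3bp (226 RPKM), a secreted glycoprotein, Ifi27 (215 RPKM) and Bst2 (170 RPKM), which tethers budding virions to the cell. The lowest were those of Mx2 (1.21 RPKM) and Mx1 (0.928 RPKM), dynamin-like GTPases that block viral replication and of which Mx1 is not functional in most inbred mouse strains. Receptors ranged from 13.8 (Ifnar1) to 126 RPKM (Ifngr1), transcription factors from 8.48 (Stat2) to 69.7 RPKM (Irf9), and sensors from 5.15 (Ifih1) to 29.3 RPKM (Dhx58). The IFIT family, which binds viral RNA, was read at 3.88 to 9.67 RPKM, below every receptor. The plot of level by role shows the means per genotype, and parts of this order differed between genotypes. Ifi27 was above Lgals3bp in p53R248W/+ (212 against 201 RPKM) and in p53-/- LSKs (237 against 232 RPKM). In p53-/- LSKs Rtp4 (145 RPKM) was above Bst2 (137 RPKM), and the lowest sensor was Eif2ak2 (3.84 RPKM).

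**Figure D1:**
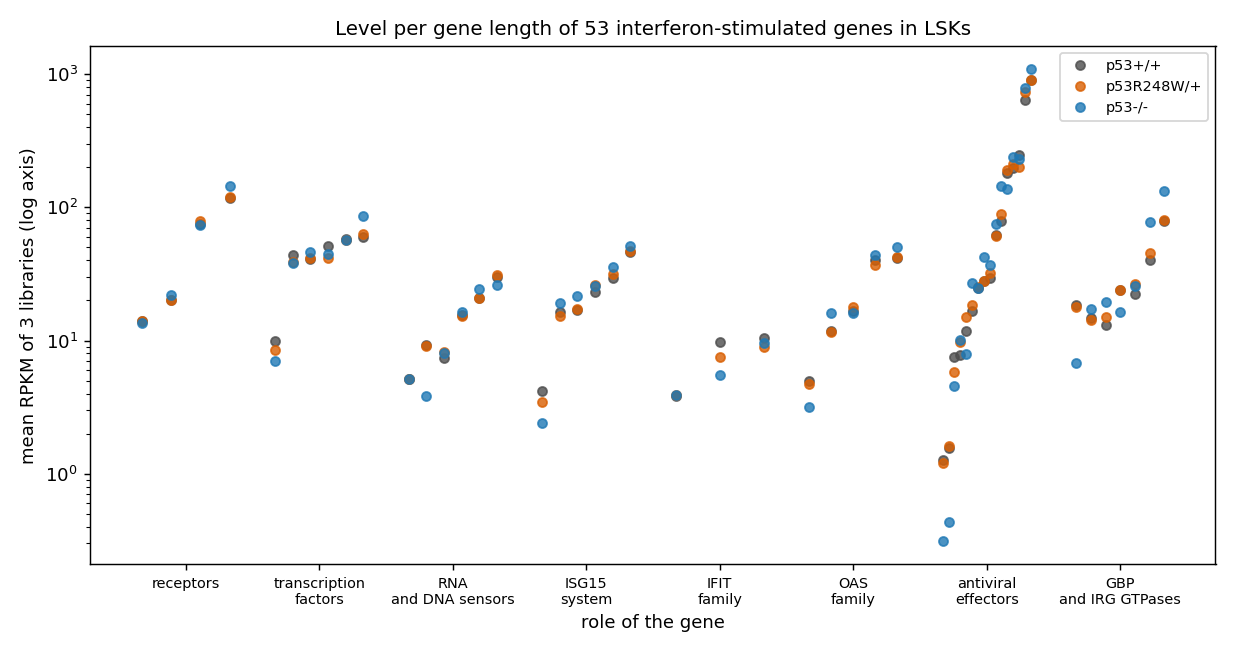
Mean RPKM of 3 libraries (log axis) of the 53 interferon-stimulated genes, by role, with p53+/+ in grey, p53R248W/+ in orange and p53-/- in blue. Antiviral effectors span the widest range, from Mx1 (0.928 RPKM over the 9 libraries) to Ifitm3 (966 RPKM), and the points of the 3 genotypes lie close together for most genes.

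The mean level of the members differed between the 3 genotypes by less than the spread between libraries. The mean log2 CPM of the 53 members was 6.02 ± 0.21 in p53+/+, 6.02 ± 0.10 in p53R248W/+ and 5.96 ± 0.18 in p53-/- LSKs (SD, n = 3 each). The share of all counts that fell on the members, in which the most abundant of them weigh most, was 0.569 ± 0.057% in p53+/+, 0.562 ± 0.034% in p53R248W/+ and 0.631 ± 0.026% in p53-/- LSKs (SD, n = 3 each). By this share the p53-/- libraries (0.602% to 0.651%) lay above the p53R248W/+ libraries (0.524% to 0.587%) and overlapped with the p53+/+ libraries (0.504% to 0.610%), so the order of the genotypes was not the same on both scales. The spread within a genotype was as large for the members as for other genes, with a median SD of 0.295 on the log2 scale against 0.291 over all genes tested. In p53+/+ replicate 3 many members were low, and it had the lowest value of the 3 p53+/+ libraries for 41 of the 53 members, against 35.5% of all genes, and the lowest of all 9 libraries for 24 members. In this library the members were, in the median, 0.28 below their own median over the 9 libraries on the log2 scale. In p53R248W/+ replicate 3, 31 members had the lowest value of their genotype, against 28.9% of all genes, and p53-/- replicate 1 was the lowest of all 9 libraries for 13 members, with a mean member level (log2 CPM 5.78) close to that of p53+/+ replicate 3 (5.77). Zbp1, a sensor of Z-form nucleic acids, was at 21.0 and 18 CPM in the other p53+/+ libraries and at 9.03 CPM in replicate 3, and Ifit3 was at 9.72 and 9.76 CPM there and at 3.51 CPM in replicate 3. The heat map of the 53 members by library shows this column.

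**Figure D2:**
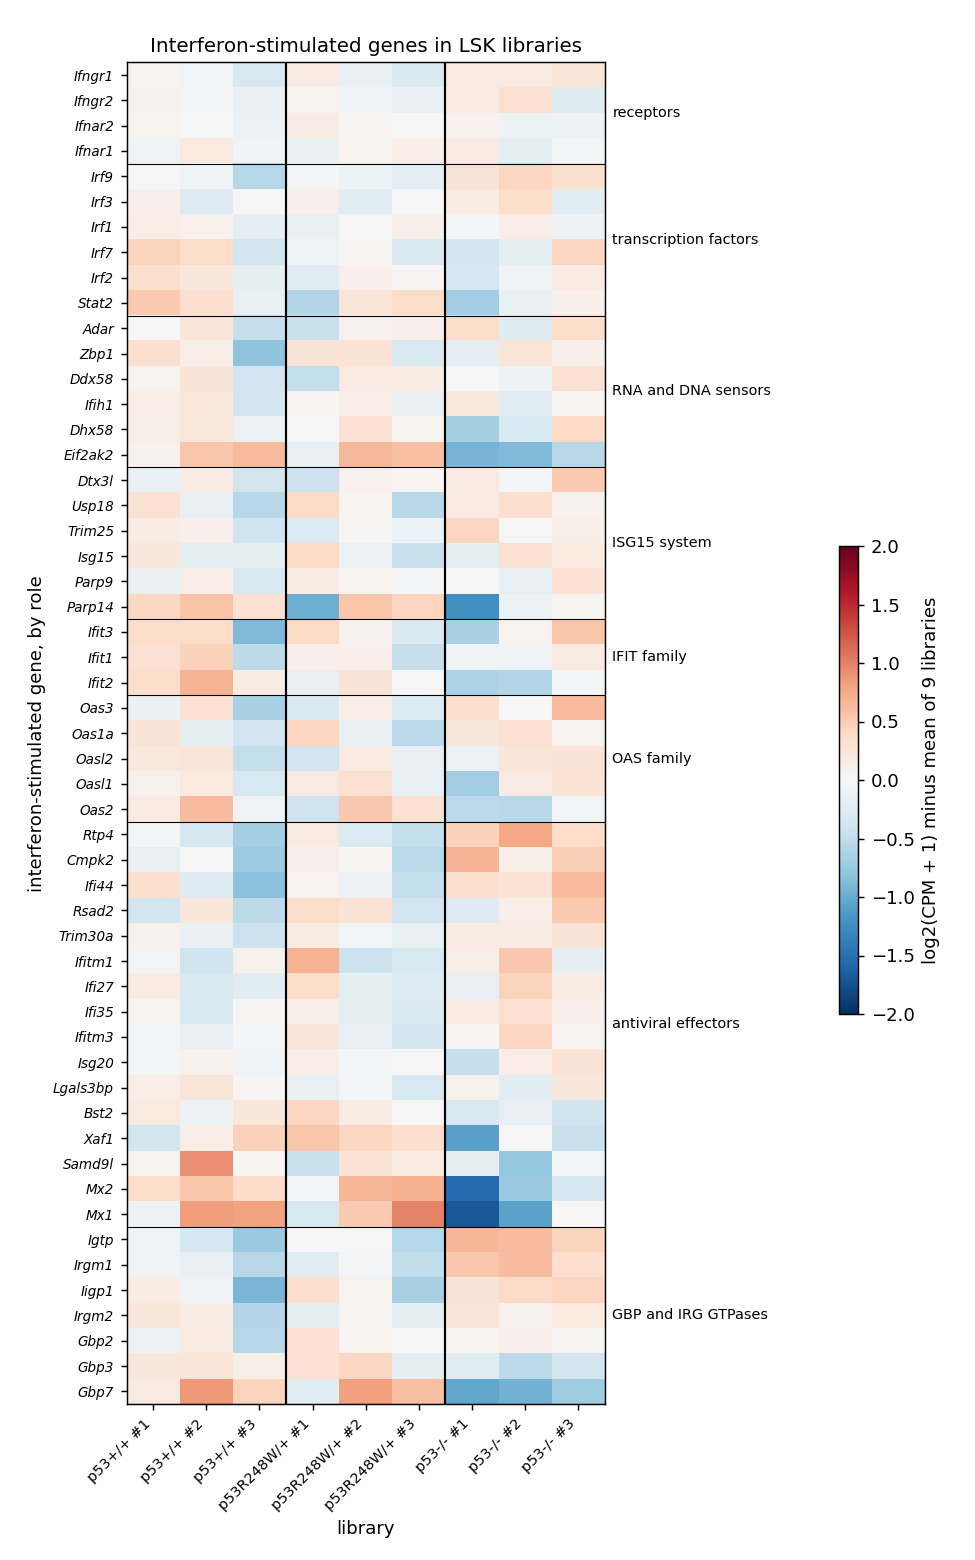
The 53 interferon-stimulated genes (lines, by role and by log2 fold change within a role) in the 9 LSK libraries (columns), as log2(CPM + 1) minus the mean of the 9 libraries, from blue (lower) to red (higher). The p53+/+ replicate 3 column is blue for most members, and Gbp7, Eif2ak2, Igtp and Irgm1 show 3 p53-/- libraries of 1 color.

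The question of the first comparison was what loss of p53 does to these genes. Of the 53 members, Igtp rose and Gbp7 and Eif2ak2 fell in p53-/- against p53+/+ LSKs (edgeR quasi-likelihood test, Benjamini-Hochberg adjusted p below 0.05 over 12625 genes tested). Of all genes tested, 1.25% were higher and 2.25% lower by the same rule, so 1 and 2 of 53 members are near the background. The 3 p53-/- libraries lay above all p53+/+ libraries for 10 members (background 15.4% of all genes) and below them for 8 (background 16%). The median log2 fold change was 0.11 over the members and 0.00 over all genes tested, and 32 members had a positive and 21 a negative value. In the text below, fold changes are from the same fit, with their SE.

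Gbp7 (NCBI gene 229900) belongs to the guanylate-binding proteins, large GTPases that assemble on the vacuoles of intracellular pathogens. It was at 81.4, 132 and 98.1 CPM in p53+/+ LSKs, at 61.9, 129 and 109 CPM in p53R248W/+ LSKs and at 34.5, 36.9 and 43.7 CPM in p53-/- LSKs. All p53-/- libraries were below all 6 others, and p53+/+ and p53R248W/+ overlapped. The level was 2.71-fold lower in p53-/- than in p53+/+ LSKs (log2 fold change -1.44 ± 0.27 SE, adjusted p = 0.0214).

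Eif2ak2 (NCBI gene 19106) encodes PKR, a kinase that binds double-stranded RNA and halts translation. Its level was 31.1, 43.3 and 45.7 CPM in p53+/+, 26.1, 46.5 and 44.9 CPM in p53R248W/+ and 14.9, 15.5 and 19.5 CPM in p53-/- LSKs. As for Gbp7, the p53-/- libraries were the lowest 3 of 9, and p53R248W/+ replicate 1 was the lowest of the others. The level was 2.41-fold lower in p53-/- than in p53+/+ LSKs (log2 fold change -1.27 ± 0.25 SE, adjusted p = 0.0272).

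Igtp (NCBI gene 16145, also called Irgm3) is an immunity-related GTPase that controls the effector GTPases of its family. It was at 97.9, 82.3 and 62.1 CPM in p53+/+, at 104, 104 and 69.7 CPM in p53R248W/+ and at 165, 162 and 142 CPM in p53-/- LSKs, so that the p53-/- libraries were the highest 3 of 9. The level was 1.94-fold higher in p53-/- than in p53+/+ LSKs (log2 fold change 0.95 ± 0.21 SE, adjusted p = 0.0357). Igtp lies next to its paralog Irgm2, and Gbp7 is 1 of several similar genes, so that reads shared between copies could have been left out or misassigned. The strand used in the counting was not given in the sources used here.

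The 7 GBP and IRG GTPases did not move together. Just outside the threshold, Irgm1 (NCBI gene 15944), a regulator of the family that is needed for stem cell maintenance under interferon, was at 199, 189 and 142 CPM in p53+/+, 179, 206 and 148 CPM in p53R248W/+ and 303, 320 and 265 CPM in p53-/- LSKs. Its p53-/- libraries did not overlap with the others (log2 fold change 0.74 ± 0.19 SE against p53+/+, adjusted p = 0.0506). Iigp1 had its p53-/- libraries (57.1 to 63.9 CPM) above the p53+/+ libraries (24.6 to 52.8 CPM) with an adjusted p of 0.259. Gbp3, a paralog of Gbp7 on the same chromosome, had values of 67.8 to 74.0 CPM in p53+/+ and 43.3 to 54.1 CPM in p53-/- LSKs (log2 fold change -0.56 ± 0.19 SE, adjusted p = 0.103), and Gbp2 and Irgm2 overlapped.

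Among the 16 antiviral effectors, 0 passed the threshold, where 1.25% of all genes were called higher and 2.25% lower. The p53-/- libraries lay above the p53+/+ libraries for 5 effectors (background 15.4% of all genes) and below for 3 (background 16%). Rtp4, a membrane-associated chaperone of receptors, was at 152, 123 and 98.4 CPM in p53+/+, at 177, 129 and 112 CPM in p53R248W/+ and at 216, 266 and 202 CPM in p53-/- LSKs (log2 fold change 0.87 ± 0.22 SE against p53+/+, adjusted p = 0.0506). The p53-/- libraries were the highest 3 of 9, and p53+/+ and p53R248W/+ overlapped. Mx2 was at 71, 85 and 65 counts in p53+/+ and at 4, 25 and 37 counts in p53-/- libraries, or 3.81 ± 0.37 and 1.05 ± 0.80 CPM (SD, n = 3 each), with a log2 fold change of -1.84 ± 0.60 SE (adjusted p = 0.0985). Its neighbor Mx1 was at 40, 95 and 83 counts in p53+/+ and at 0, 12 and 46 in p53-/- libraries, where a count of 0 allows up to 3, and these groups overlapped (adjusted p = 0.222).

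The IFIT, OAS and ISG15 genes gave no call, beside a background of 1.25% of all genes called higher and 2.25% lower. Ifit2, an RNA-binding protein, was at 36.8, 46.6 and 32.1 CPM in p53+/+, at 25.5, 34.4 and 28.6 CPM in p53R248W/+ and at 18.2, 18.8 and 27.9 CPM in p53-/- LSKs (log2 fold change -0.83 ± 0.23 SE against p53+/+, adjusted p = 0.0635). Its p53-/- libraries were below all p53+/+ libraries but overlapped with p53R248W/+. Ifit1 and Ifit3 had log2 fold changes of -0.13 and 0.02. Within the OAS family, which makes oligoadenylates that activate RNase L, values ran from -0.67 (Oas2) to 0.46 (Oas3). Isg15, a ubiquitin-like modifier, and Usp18, the protease that removes it and dampens the type I receptor, had values of 0.16 and 0.29. Parp14, an ADP-ribosyltransferase, had the largest difference of its group, with 27.8 to 33.4 CPM in p53+/+ and 8.92 to 22.9 CPM in p53-/- LSKs, which did not overlap (log2 fold change -0.80 ± 0.41 SE, adjusted p = 0.259), and 10.9 CPM in p53R248W/+ replicate 1.

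The receptors and transcription factors that carry the interferon signal gave 0 calls out of 4 and 0 out of 6. With 1.25% of all genes called higher and 2.25% lower, that is near the background. Ifnar1 and Ifnar2, the chains of the type I receptor, had log2 fold changes of -0.03 and -0.02, with 95% intervals no wider than 0.36 on either side. Ifngr1, a chain of the type II receptor, had 297 to 312 CPM in p53-/- and 211 to 270 CPM in p53+/+ LSKs, which did not overlap (log2 fold change 0.31 ± 0.17 SE, adjusted p = 0.299). Irf9, the DNA-binding part of the complex with Stat2, was at 182, 176 and 123 CPM in p53+/+, at 178, 170 and 160 CPM in p53R248W/+ and at 220, 248.2 and 229 CPM in p53-/- LSKs (log2 fold change 0.54 ± 0.18 SE against p53+/+, adjusted p = 0.100). Its p53-/- libraries were the highest 3 of 9. Irf1, which drives many of the same promoters, had a value of -0.01, and Irf7, which amplifies type I interferon production, of -0.19 with overlapping libraries. Of the 6 sensors, Eif2ak2 was the only 1 past the threshold, and the others, Ddx58 (RIG-I), Ifih1 (MDA5), Dhx58, Zbp1 and the RNA editor Adar, had values from -0.20 to 0.23.

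**Figure D3:**
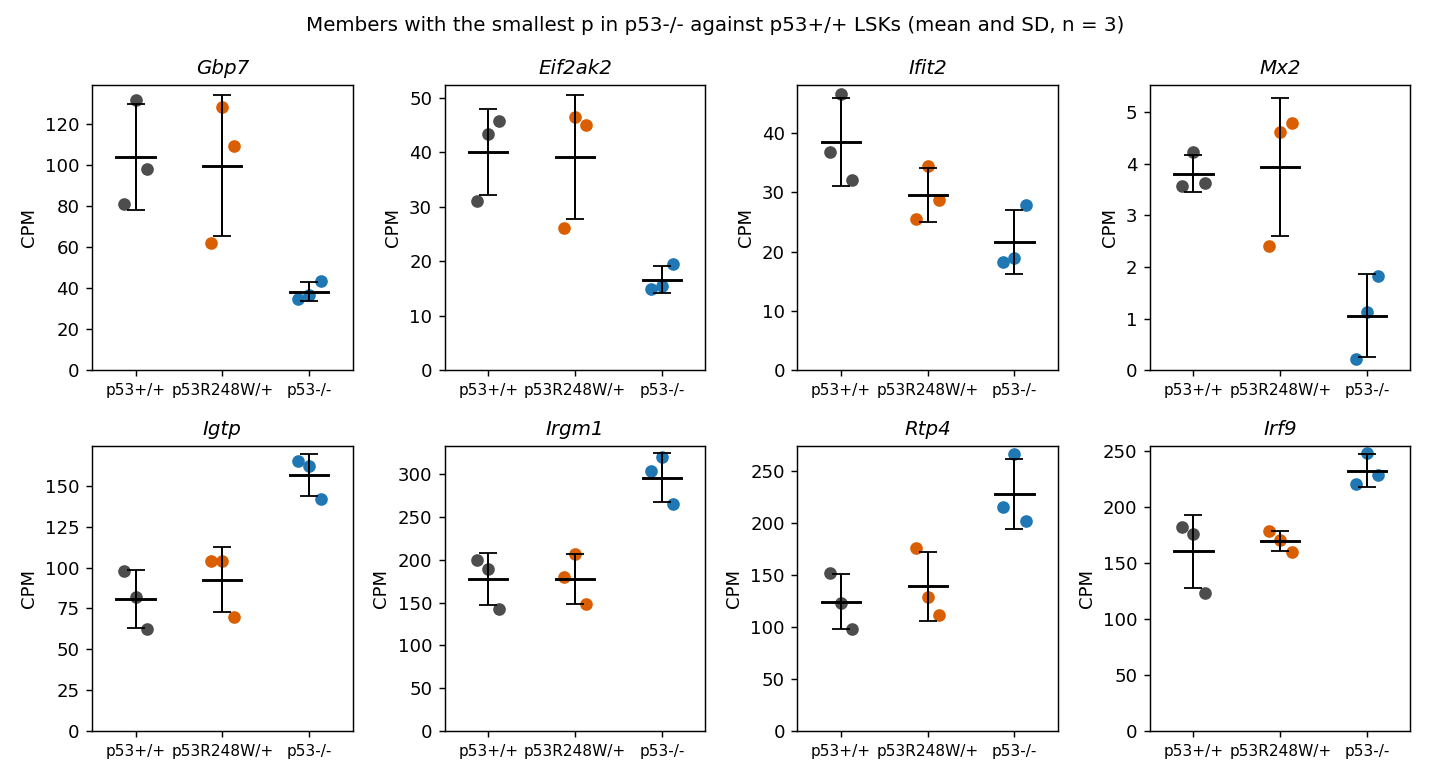
CPM of the 8 interferon-stimulated genes with the smallest p-values in p53-/- against p53+/+ LSKs. Each point is a library, and bars give the mean and SD of 3 libraries per genotype. The upper genes have their p53-/- libraries below those of p53+/+, such as Gbp7 at 34.5 to 43.7 against 81.4 to 132 CPM, and the lower genes have them above, such as Igtp at 142 to 165 against 62.1 to 97.9 CPM.

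Several features of the libraries moved with these values. Each of the 3 calls was lost without p53+/+ replicate 2 or 3, or without any 1 of the 3 p53-/- libraries, at adjusted p-values up to 0.131 for Eif2ak2, 0.0837 for Gbp7 and 0.156 for Igtp, and the number of calls was then 0. In those fits the share of all genes called also fell, from 3.5% to between 0.293% and 0.815%, so the loss was not particular to the members. The directions of the 3 genes were kept on leaving out any 1 library, with log2 fold changes between -1.59 and -1.23 for Gbp7, -1.42 and -1.16 for Eif2ak2 and 0.80 and 1.12 for Igtp. Without the library labelled p53+/+ replicate 1 there were 4 calls, the same 3 and Rtp4, and 3.95% of all genes were called. Without p53R248W/+ replicate 1 there were 6, the same 3 with Ifit2, Irgm1 and Rtp4, while the share of all genes called rose from 3.5% to 11.7%. The 10 granulocyte and monocyte markers in the table summed to 1446 to 1721 CPM in p53-/-, 2073 to 6419 CPM in p53+/+ and 3568 to 8230 CPM in p53R248W/+ LSKs. Without both libraries high in neutrophil granule genes Gbp7, Eif2ak2 and Igtp had log2 fold changes of -1.23, -1.21 and 0.97 with 0 calls, and 0.468% of all genes were called. The 5 T and NK cell markers summed to 210 to 280 CPM in p53-/- and to 324 to 338 CPM in p53+/+ LSKs, almost all of it Nkg7, while Cd8a was at 0 to 1.33 CPM. The part of these cells in the result was not tested, and fewer cells of a type and less RNA per cell cannot be told apart in bulk libraries.

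Gene length also moved with the comparison. The 4212 genes tested of at most 2134 bases had a median log2 fold change of 0.07 in p53-/- against p53+/+ LSKs and the 4208 genes of at least 3744 bases a median of -0.12, and Gbp7 (5622 bases) and Eif2ak2 (4326 bases) are of the long kind and Igtp (2023 bases) of the short kind. With the length trend of each library removed, an alternative chosen after seeing the data, the values were -1.31, -1.22 and 0.91, and Bst2, Ifit2, Irgm1 and Rtp4 joined the same 3 calls, while the share of all genes called rose from 3.5% to 8.75%. Of the 53 members, 9 lie on chromosome 11 with Trp53, among them Xaf1 at 2.7 Mb, Igtp and Irgm2 at 11.4 Mb and Irgm1 at 20.7 Mb from it, while Gbp7 is on chromosome 3 and Eif2ak2 on chromosome 17. Whether sequence around the targeted allele differs between these mice was not tested.

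The second comparison asked what the R248W mutation does to the same genes while a normal allele is still there. No member was past the threshold in p53R248W/+ against p53+/+ LSKs by edgeR, DESeq2 or limma-voom, where edgeR called 1 gene of all those tested (0.00792%), which was higher. At an unadjusted p below 0.05 there were 0 members in each direction, against 0.475% of all genes higher and 0.483% lower. The p53R248W/+ libraries lay above all p53+/+ libraries for 0 members (background 2.66%) and below them for 1, Lgals3bp (background 2.38%). The median log2 fold change of the members was 0.01, the same as over all genes tested, and the values ran from -0.38 (Ifit2) to 0.33 (Xaf1). For 49 of the 53 members the 95% interval of the log2 fold change lay within 1 of 0, so that a change by more than that was outside the interval. The exceptions were Mx1, Mx2, Parp14 and Samd9l.

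**Figure D4:**
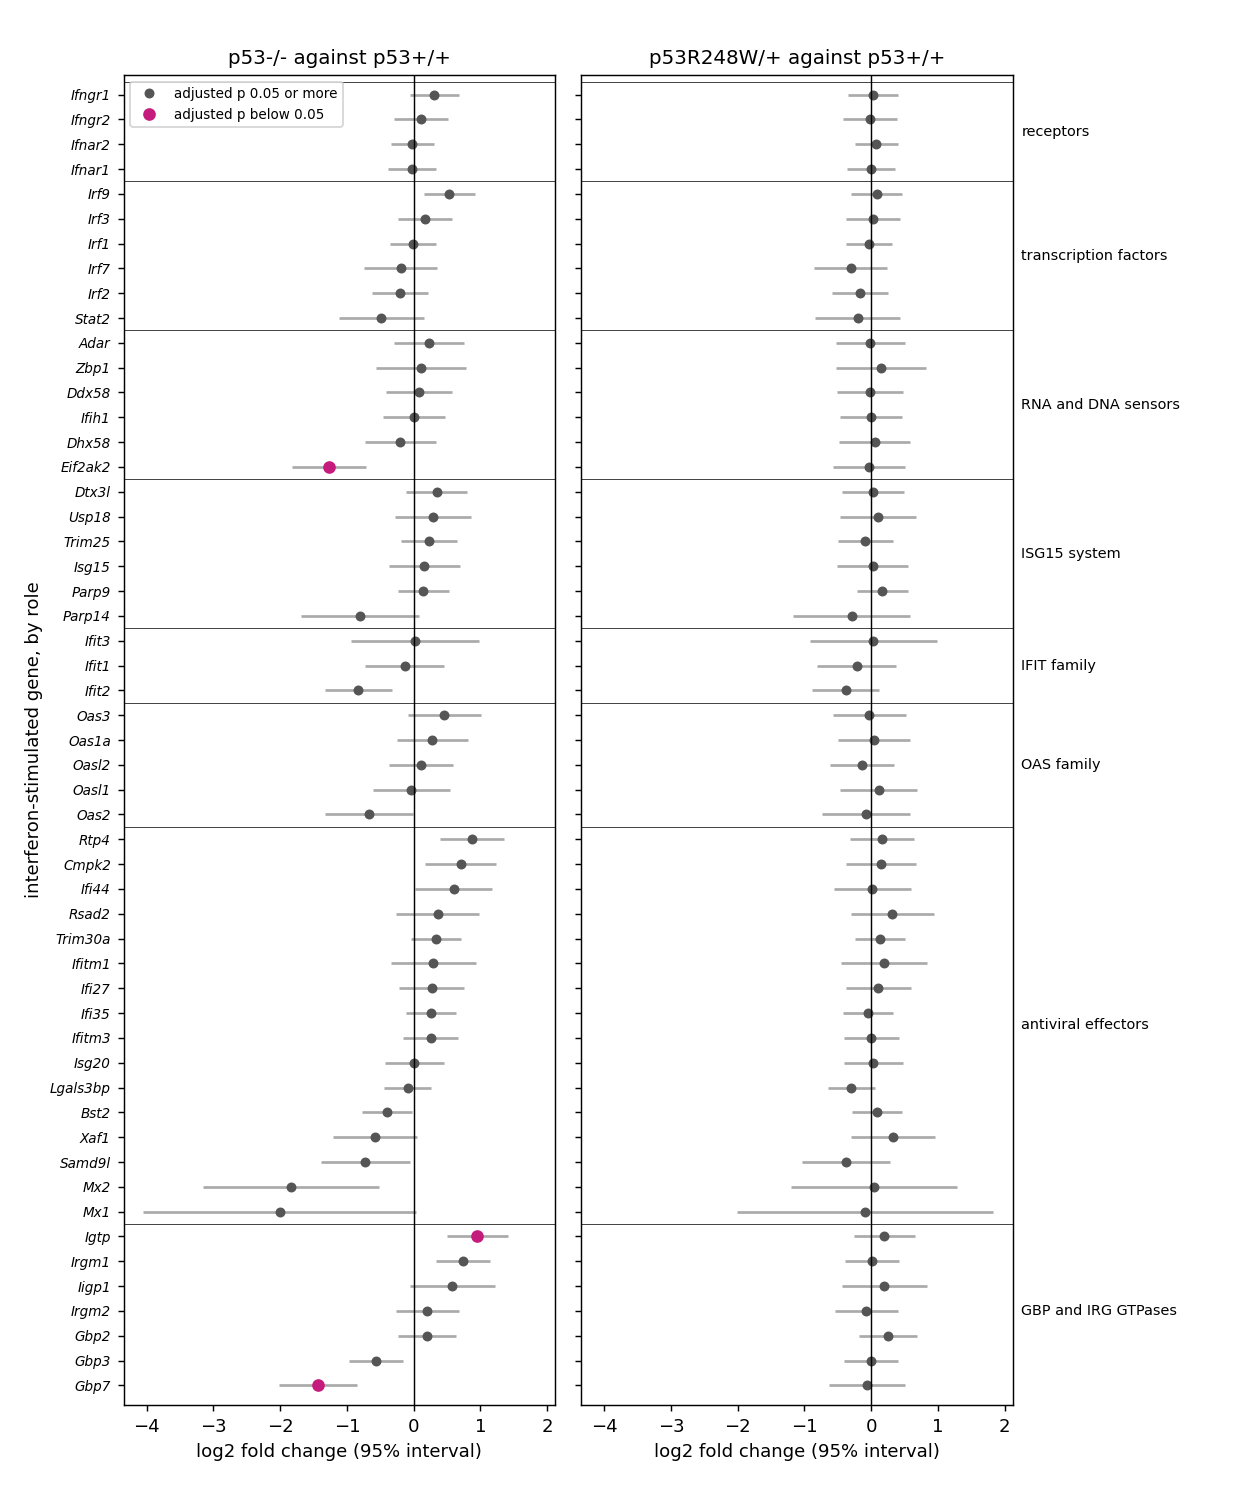
Log2 fold change of the 53 interferon-stimulated genes with its 95% interval, in p53-/- (left) and p53R248W/+ (right) against the same p53+/+ libraries, by role. Points in magenta passed an adjusted p of 0.05, which were Gbp7, Eif2ak2 and Igtp on the left and 0 genes on the right, where values ran from -0.38 to 0.33.

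Lgals3bp had the smallest unadjusted p of the members in this comparison. It was at 534, 570 and 501 CPM in p53+/+, 440, 473 and 392 CPM in p53R248W/+ and 518, 421 and 569 CPM in p53-/- LSKs (log2 fold change -0.30 ± 0.16 SE for p53R248W/+ against p53+/+, unadjusted p = 0.0920, adjusted p = 1.00). The p53R248W/+ libraries were below all p53+/+ libraries, and both genotypes overlapped with p53-/-. The next members by p were Ifit2 (-0.38 ± 0.23 SE), Gbp2 (0.26 ± 0.20 SE), Samd9l (-0.38 ± 0.30 SE) and Irf7 (-0.31 ± 0.25 SE), each with overlapping libraries. Gbp2 was at 55.7, 69.0 and 40.3 CPM in p53+/+ and at 74.4, 62.4 and 60.5 CPM in p53R248W/+ LSKs. Irf7 was at 114, 108 and 64.5 CPM in p53+/+ and at 78.6, 84.5 and 68.0 CPM in p53R248W/+ LSKs, so that p53+/+ replicate 3 was the lowest of the 6 for both genes. Samd9l, a growth-restricting gene that is mutated in inherited marrow failure, had 57.9 CPM in p53+/+ replicate 2 and from 21.8 to 36.5 CPM in the other 5 libraries. For the genes called in p53-/- against p53+/+ LSKs, the p53R248W/+ values against p53+/+ were -0.06 (95% interval -0.63 to 0.51) for Gbp7, -0.03 (-0.58 to 0.51) for Eif2ak2 and 0.20 (-0.26 to 0.65) for Igtp. They were -0.34, -0.24 and 0.24 in a fit that adjusts for Y-linked expression and -0.55, -0.57 and 0.36 among libraries without Y-linked reads, where 1 p53R248W/+ library is left, with adjusted p-values from 0.588 to 0.747.

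The third comparison, p53R248W/+ against p53-/-, asked how the mutant differs from the loss of p53, and it shares the p53-/- libraries with the first. Gbp7 and Eif2ak2 were higher in p53R248W/+ LSKs, by 2.60-fold (log2 fold change 1.38 ± 0.27 SE, adjusted p = 0.0232) and 2.36-fold (1.24 ± 0.25 SE, adjusted p = 0.0281), and 0 members were lower. In the background, 2.34% of genes were higher and 1.1% lower. The p53R248W/+ libraries lay above all p53-/- libraries for 6 members (background 12.1%) and below them for 8 (background 12%), and the median log2 fold change was -0.09 for the members and 0.02 for all genes. Igtp (-0.76 ± 0.21 SE, adjusted p = 0.0681), Irgm1 (-0.73 ± 0.19 SE, adjusted p = 0.0541) and Rtp4 (-0.71 ± 0.22 SE, adjusted p = 0.0918) had non-overlapping lower values that missed the threshold. Xaf1, a pro-apoptotic zinc finger protein, was at 42.4, 38.3 and 36.0 CPM in p53R248W/+ and 12.8, 28.6 and 20.6 CPM in p53-/- LSKs (0.91 ± 0.29 SE, adjusted p = 0.101), and Mx2 had a log2 fold change of 1.89 ± 0.60 SE (adjusted p = 0.100). These groups too did not overlap. Both calls were lost without p53R248W/+ replicate 2 or 3 or any 1 of the p53-/- libraries. In those fits the share of all genes called also fell, from 3.44% to between 0.609% and 1.3%. Without p53R248W/+ replicate 1 there were 6 calls, with Igtp, Irgm1, Mx2 and Rtp4 added, while the share of all genes called rose from 3.44% to 12.3%. With the level of the Y-linked genes as a covariate 0 members and 1.28% of all genes were called. Among libraries without Y-linked reads, where p53R248W/+ replicate 1 alone stands for its genotype and is assumed to vary like the others, the values were 0.68 for Gbp7 and 0.64 for Eif2ak2. Against p53+/+ LSKs, the p53-/- values of Gbp7 and Eif2ak2 in those libraries were -1.23 and -1.21.

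Other genes of the interferon pathway were read from lists of signaling, sensing and interferon-induced genes that hold no member. These lists were chosen with earlier results of these data known, so their counts beside the background are a description and not a test. Among 23 kinases, STATs, feedback inhibitors and further IRFs, 1 rose and 1 fell in p53-/- against p53+/+ LSKs, and 1 was higher and 1 lower in p53R248W/+ against p53-/- LSKs. Of all genes tested, 1.25% rose and 2.25% fell in the first of these comparisons, and 2.34% were higher and 1.1% lower in the other. The gene that fell, Irf8, a factor of monocyte and dendritic cell development, was at 218, 250 and 235 CPM in p53+/+, 298, 364 and 237 CPM in p53R248W/+ and 108, 82.8 and 125 CPM in p53-/- LSKs (log2 fold change -1.15 ± 0.20 SE against p53+/+, adjusted p = 0.0183), and it was also the gene that was higher in p53R248W/+ than in p53-/- LSKs (1.51 ± 0.21 SE, adjusted p = 0.00445). Its p53-/- libraries were the lowest 3 of 9. Of 20 genes of nucleic acid sensing tested, 0 rose and 2 fell, namely Mb21d1, which encodes the DNA sensor cGAS (36.2 to 44.3 CPM in p53+/+ and 19.3 to 20.9 CPM in p53-/- LSKs, -1.0 ± 0.17 SE, adjusted p = 0.0161), and Ikbke, a kinase that activates IRFs (-0.86 ± 0.21 SE, adjusted p = 0.0497).

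Of 64 further interferon-induced genes tested, Trim21, an antibody receptor of the cytosol, rose in p53-/- against p53+/+ LSKs (0.80 ± 0.18 SE, adjusted p = 0.0364), and the HIN-200 family genes Pyhin1 (-1.76 ± 0.29 SE, adjusted p = 0.0145) and Mndal (-1.16 ± 0.20 SE, adjusted p = 0.0174) fell. The background was 1.25% of all genes higher and 2.25% lower. Pyhin1 was at 29.2, 38.3 and 21.2 CPM in p53+/+, 32.1, 41.4 and 23.7 CPM in p53R248W/+ and 8.0, 7.32 and 10.9 CPM in p53-/- LSKs, so its p53-/- libraries were the lowest 3 of 9. Against p53-/- LSKs, 5 of these 64 genes were higher in p53R248W/+ LSKs and 0 lower, beside a background of 2.34% higher and 1.1% lower. The 5 were Pyhin1, Mndal, Ifi203, which is of the same family, Slfn9 and Trim12c. In p53R248W/+ against p53+/+ LSKs, 0 genes of these lists passed the threshold. The genes of the interferons themselves, 11 of which were on a list of ligands, were not analysed here.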

How the data were processed

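RNA-seq of LSKs from p53+/+, p53R248W/+ and p53-/- mice was analysed, with 3 libraries per genotype grouped by their labels. The authors deposited whole-number read counts per gene for 12647 genes, without normalization, and a gene length that was used for RPKM. The submitters' processing notes name STAR 2.5.2b, featureCounts (Subread 1.5.0), edgeR and mm10, with no roles stated. The same table holds columns of the authors' own comparisons (log2 fold change, p-value, false discovery rate), which were not used.

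Counts were fitted with edgeR 4.0.16 in R 4.3.3 (low counts removed with filterByExpr, TMM scaling, a term per genotype and 1 quasi-likelihood model over the 9 libraries), with Benjamini-Hochberg adjustment over the 12625 genes tested, 53 members included. CPM and RPKM carry TMM factors, and log2 CPM has a prior count of 2. SE is the log2 fold change divided by the square root of F. The fits were tested on simulated data. Total counts ranged from 18021375 to 29750702, and no library was a duplicate of another of its genotype. Pairs across genotypes were not part of that check. Values for all libraries are given for members past an adjusted p of 0.05 and up to 5 others per comparison with the smallest p. Promoter windows and positions came from RefSeq (GRCm38.p6), and Python 3.11.15 was used for tables and figures.

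The members and lists were chosen with earlier results of these data known. As alternatives, tests were run with limma-voom (limma 3.58.1), DESeq2 1.42.0 and DESeq2 size factors in edgeR, with no filter or a minimum of 10 counts per library, with a block for the replicate number, the Y-linked level as a covariate, only the 6 libraries compared, and leaving out each library. Those without both libraries high in neutrophil granule genes, with only libraries that lack Y-linked reads, and with the length trend removed (loess, span 0.5) were chosen after seeing the data. The H3K27me3 ChIP-seq samples were not analysed here, and results for some pathway and marker genes are not reported here.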

Additional observations from a re-analysis of the deposited data

How the results depend on the processing

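In p53-/- against p53+/+ LSKs the 3 members called became 9 with DESeq2, 5 with at least 10 counts in every library, 5 with the 6 libraries compared alone, 7 with the length trend removed and 0 without both libraries high in neutrophil granule genes. Leaving out 1 library gave 0 to 6 calls. In p53R248W/+ against p53-/- LSKs the 2 calls became 7 with DESeq2, 5 with the length trend removed and 1 with the 6 libraries compared alone. They became 0 with the Y-linked covariate or without the libraries high in granule genes, and leaving out 1 library gave 0 to 6. Libraries without Y-linked reads leave 1 p53R248W/+ library, so calls among them are not counted here. Of all genes tested, 3.5% and 3.44% were called in these comparisons, against 12.3% and 10.5% with DESeq2 and 8.75% and 7.29% with the length trend removed. The shares were 4.91% and 4.15% with at least 10 counts in every library and 7.13% and 1.66% with the 6 libraries compared alone. They were 0.468% and 0.61% without the libraries high in granule genes, and 1.28% in the second with the Y-linked covariate. Leaving out 1 library gave 0.293% to 11.7% in the first and 0.609% to 12.3% in the second. In p53R248W/+ against p53+/+ LSKs 0 members were called under each of these alternatives. With the replicate number as a block, the calls were 5 in each comparison with p53-/-, adding Irgm1 and Rtp4 to the 3 of the first and Igtp, Irgm1 and Rtp4 to the 2 of the other. The share of all genes called was then 6.99% in the first and 5.32% in the other. The numbers share no stated litter or day. As deviations from the genotype mean, same-numbered p53+/+ and p53R248W/+ libraries correlated at 0.36, 0.54 and 0.04 for replicates 1, 2 and 3. For p53+/+ replicate 1 with p53R248W/+ replicate 2 the value was -0.48, and for p53+/+ replicate 2 with p53R248W/+ replicate 1 it was -0.38. Same-numbered pairs that include a p53-/- library ran from -0.11 to 0.13. The numbers were therefore not taken as pairs over all 3 genotypes, and a shared origin of some p53+/+ and p53R248W/+ libraries was not tested. The median log2 fold change of the members stayed between -0.03 and 0.21, -0.08 and 0.12, and -0.16 and 0.01 in the 3 comparisons, so its sign was not stable. No value past the threshold changed sign under these alternatives. With 3 libraries per genotype, the median 95% half-width of a log2 fold change was 0.49, without adjustment for the number of genes tested. For most members a call needed a larger difference than that. In p53-/- against p53+/+ LSKs, Rtp4 at 0.87 and Irgm1 at 0.74 (edgeR, adjusted p = 0.0506 each) were not called. Other causes of the lost calls were not tested.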
